A study of Mus musculus with 16 samples.

Results

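The genes of the major histocompatibility complex (MHC) and of antigen presentation were followed in 8 mouse brain tumours, 5 samples of dorsal control brain and 3 samples of ventral control brain. The members were chosen by name. They are all genes whose symbol in the platform annotation begins with H2-, Tapbp or Cd1d, together with Tap1, Tap2, B2m, Cd74, Ciita, Nlrc5, Erap1 and Calr. The array carries 47 such genes with 77 probes. Of these, 30 genes with 45 probes were measured, which means that a probe was detected (detection p-value under 0.05) on at least 3 of the 16 arrays. They make up 30 of the 11755 genes measured. Of the 30 genes, 24 lie on chromosome 17 in the RefSeq annotation, where the mouse MHC is found. The 8 tumours, high grade gliomas by the title of the study, came from mice carrying Ascl1creERTM, a Cre recombinase switched on by tamoxifen and driven by the gene of a transcription factor of neural progenitors, with tumour suppressor genes knocked out. They were taken once neurological signs had appeared, and each is labelled as an independent tissue. The dorsal and ventral controls are brain tissue from the matching regions of control mice and are labelled as biological replicates. The sources used here do not give which tumour suppressors were deleted, the genotype of the controls, the strain, age and sex of the mice, or the region of each tumour. The design text counts 10 tumours, of which 8 (numbers 2, 3 and 5 to 10) are analysed here.

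MHC class I molecules sit on nearly all nucleated cells and show peptides made inside the cell to CD8 T cells. Each is a heavy chain (H2-K1 and H2-D1 are the classical ones measured here) paired with beta-2-microglobulin, the product of B2m, and loaded with peptides that the proteasome cuts and the TAP transporter, made of Tap1 and Tap2, carries into the endoplasmic reticulum. MHC class II molecules are pairs of an alpha and a beta chain, held by the invariant chain Cd74 until the H2-DM proteins help to load peptides taken up from outside, and are made mainly by macrophages, dendritic cells and B cells, and by microglia when activated. Interferon gamma induces both pathways, class I through the coactivator NLRC5 and class II through the coactivator CIITA. In healthy brain tissue both are known to be low.

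Of the 11 class I heavy chain genes measured, 8 were higher in tumours, with every tumour above every control. Among all features, 27.2% of genes were higher, and for 9.74% of probes every tumour lay above every control. H2-Q6, among these 8, was detected on at most 1 of 8 controls and so was measured only with the help of the tumours. The class II genes H2-Ab1, Cd74, H2-Eb1, H2-DMb2 and H2-DMb1 were far higher in some tumours than in others. H2-D1 was 9.06-fold higher in tumours than the mean of both control regions, B2m 6.36-fold and H2-K1 5.15-fold, and each of the 8 tumours lay above each of the 8 controls for these 3 genes. Of the class II genes, H2-Ab1 was 10.8-fold and Cd74 7.2-fold higher on average, with the highest signals in tumours 2, 5 and 10 and much lower ones in the other 5. These sizes depend on the background correction. Without it H2-K1 was 2.17-fold, H2-Ab1 3.73-fold and Cd74 3.63-fold higher. Calr, Tapbpl, H2-DMa, H2-Ob, H2-Eb2, H2-M10.1, H2-M10.3, H2-Ke6 and, narrowly, H2-Aa did not pass the test. The class I pseudogene H2-Bl was lower against the mean of both regions but passed against neither region alone. The samples are pieces of tissue, so a change in the number of cells that express a gene and a change in RNA per cell cannot be told apart.

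Between 17565 and 20430 probes were detected on an array, and signals are given on a log2 scale after background correction and quantile normalization. Differences are log2 differences from a limma model with 3 group means, with their standard error (SE), and passed at a Benjamini-Hochberg adjusted p under 0.05 over 23131 probes. A gene is represented by its brightest measured probe. Of all genes measured, 27.2% were higher in tumours against the mean of both control regions and 26.6% were lower. Against the mean of both regions, all 6 measured neuron markers were lower in tumours (median difference -3.56, with summed linear signals of 1082 to 11093 in tumours, against 25964 to 54225 in dorsal and 26496 to 28251 in ventral controls). Against ventral control 5 of the 6 were lower, and Slc17a7 differed by 1.08 ± 1.03 (adjusted p = 0.442). All 4 markers of oligodendrocyte progenitors were higher (median 2.74), with summed signals of 895 to 18742 in tumours, against 734 to 1281 in dorsal and 1366 to 1605 in ventral controls. Tumour 5 stood apart in them, with Sox10 at 8.47, below every control, and Pdgfra (8.21) and Cspg4 (6.12) within the range of the controls, while its Olig2 (7.46) lay above every control. Without tumour 5, with the detection filter run again, H2-Ob was no longer measured. Of the other genes described here 20 were higher against both regions and 0 lower, since H2-Bl (-1.35, limma adjusted p = 0.0594) no longer passed. H2-D1 was then at 3.14, H2-Ab1 at 3.07, Cd74 at 2.33, H2-DMb2 at 1.57 and H2-DMb1 at 1.26. Dorsal controls 4 and 5 stood apart from the other dorsal controls. Across genes they correlated with dorsal controls 1 to 3 at r = 0.943 to 0.973, against 0.985 to 0.991 among those 3. The arrays lay on 3 chips, with tumours 8, 9 and 10, dorsal control 1 and ventral control 1 on chip 1, tumours 2 and 3 with dorsal controls 2 to 4 on chip 2, and tumours 5, 6 and 7 with dorsal control 5 and ventral controls 2 and 3 on chip 3. With 3 to 8 arrays in a group, their number limits the precision.

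Class I and class II promoters are known to share short elements near the transcription start site. These are the X2 box, whose core TGACG is bound by CREB family proteins, and the Y box, a CCAAT sequence bound by NF-Y, and many class I promoters also carry an interferon-stimulated response element. The table of RefSeq promoters (GRCm38.p6) holds 21 of the 30 genes, each as a window of 300 bases from 250 before to 50 after the start site. CCAAT on either strand was present for 12 of 12 class I and peptide loading genes and 8 of 8 class II genes, at one or more of a gene's start sites, against 41.1% of the 27025 genes in the table counted in the same way. TGACG on either strand was present for 8 of 12 and 1 of 8, against 6228 of the 27025 genes. An exact match to the interferon-stimulated response element (TTTC, any 2 bases, TTTC) was present for 2 of 12, B2m and H2-T23, and 0 of 8, against 3.99%. The gamma-activated site TTCNNNGAA was present for 1 of 12, H2-M3, and 1 of 8, H2-DMb2, against 9.55%. These are exact matches of letters, and looser forms of an element were not counted. A gene without a match, of either class, may therefore still carry the element. The motifs can occur side by side, and the TGACG core overlaps its own mirror copy in H2-Aa.

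The promoters of 4 genes show these elements for both classes, each written 5′ to 3′ on the strand of its gene, with the motifs in capitals. H2-D1 (chr17:35262844-35263143, plus strand) stands for the classical class I genes, with TGACG at position -101 from the start site, CCAAT on the opposite strand (written ATTGG) at -76 and CCAAT at -53. A position is that of the first letter of the motif. B2m (chr2:122147437-122147736, plus strand) has the interferon-stimulated response element, on the opposite strand, at -139, TGACG at -78, ATTGG at -53 and CGTCA, the core on the opposite strand, at 44. H2-Eb1 (chr17:34305617-34305916, plus strand) and H2-Aa (chr17:34287774-34288073, minus strand) are class II genes whose signal differed widely between tumours. H2-Eb1 has ATTGG at -59 and CCAAT at -35, and H2-Aa has TGACGTCA, which holds the core on both strands, at -74 and ATTGG at -48.
H2-D1 promoter: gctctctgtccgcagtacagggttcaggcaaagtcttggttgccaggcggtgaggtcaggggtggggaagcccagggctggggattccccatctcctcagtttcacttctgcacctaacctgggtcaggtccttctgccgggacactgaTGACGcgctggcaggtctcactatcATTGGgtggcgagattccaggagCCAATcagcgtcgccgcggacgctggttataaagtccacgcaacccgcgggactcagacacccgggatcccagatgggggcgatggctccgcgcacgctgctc
B2m promoter: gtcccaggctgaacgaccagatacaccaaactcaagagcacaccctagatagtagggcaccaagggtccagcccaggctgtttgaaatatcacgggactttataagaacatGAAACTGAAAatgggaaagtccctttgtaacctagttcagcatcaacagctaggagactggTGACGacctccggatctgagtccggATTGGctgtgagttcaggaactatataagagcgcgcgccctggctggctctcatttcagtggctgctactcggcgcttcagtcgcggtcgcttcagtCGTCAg
H2-Eb1 promoter: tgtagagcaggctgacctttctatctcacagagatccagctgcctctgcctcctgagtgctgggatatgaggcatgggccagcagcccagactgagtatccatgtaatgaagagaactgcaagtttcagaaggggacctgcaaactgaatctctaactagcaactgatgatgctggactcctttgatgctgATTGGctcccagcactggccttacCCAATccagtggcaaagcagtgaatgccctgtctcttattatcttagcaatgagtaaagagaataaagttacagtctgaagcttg
H2-Aa promoter: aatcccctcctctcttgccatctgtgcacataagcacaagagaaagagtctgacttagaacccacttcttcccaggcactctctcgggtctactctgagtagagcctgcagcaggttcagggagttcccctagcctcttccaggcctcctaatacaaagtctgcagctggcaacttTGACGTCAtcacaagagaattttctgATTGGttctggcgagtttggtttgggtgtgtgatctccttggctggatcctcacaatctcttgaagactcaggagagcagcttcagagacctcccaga

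The comparison of tumours with control brain asks which members differ between tumour tissue and normal brain. Against the mean of both control regions, in which each region has the same weight, 20 of the 30 genes were higher in tumours and 1 was lower, while 27.2% of all genes measured were higher and 26.6% lower. The median difference was 1.46 over the 30 genes and 0.005 over all genes. Against dorsal control alone 19 were higher and 0 lower (25.8% of all genes were higher), and against ventral control alone 15 were higher and 0 lower (19.3%; with array weights 22 and 2), with median differences of 1.57 and 1.34. For 23 of the 45 probes every tumour lay above every control, which was so for 9.74% of all 23131 probes, and for 0 every tumour lay below. The genes Tap1, Nlrc5, H2-Aa and H2-Ob were detected on 0 of 8 controls, H2-Q6, H2-Oa and H2-M10.1 on 1, and H2-Eb1 and Cd1d1 on 2. These 9 genes, 6 of them higher, were measured only with the help of the tumours, so these counts describe the genes measured and not the whole set of 47. The same holds for further probes of other genes, among them probes of H2-D1, H2-K1, H2-T10, H2-Q8 and Cd74 detected on 0 of 8 controls. Without dorsal controls 4 and 5, a choice made after seeing the data, 21 genes passed against both regions and 18 against dorsal control, in either direction. Of the 21 genes that passed against both regions, 17 changed in size by over 1.5 times on the log2 scale without background correction, all of them toward 0, and 7 with an offset of 50 in place of 16, also toward 0. Without background correction the differences were 0.99 for H2-Q8, 0.95 for H2-T10, 0.58 for H2-Q7 and 0.52 for Tap1, all with an adjusted p under 0.05, and H2-D1 (2.91) and B2m (2.56) were not among those 17. The number that passed against ventral control was between 11, without ventral control 3, and 18 when single arrays were left out.

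**Figure D1:**
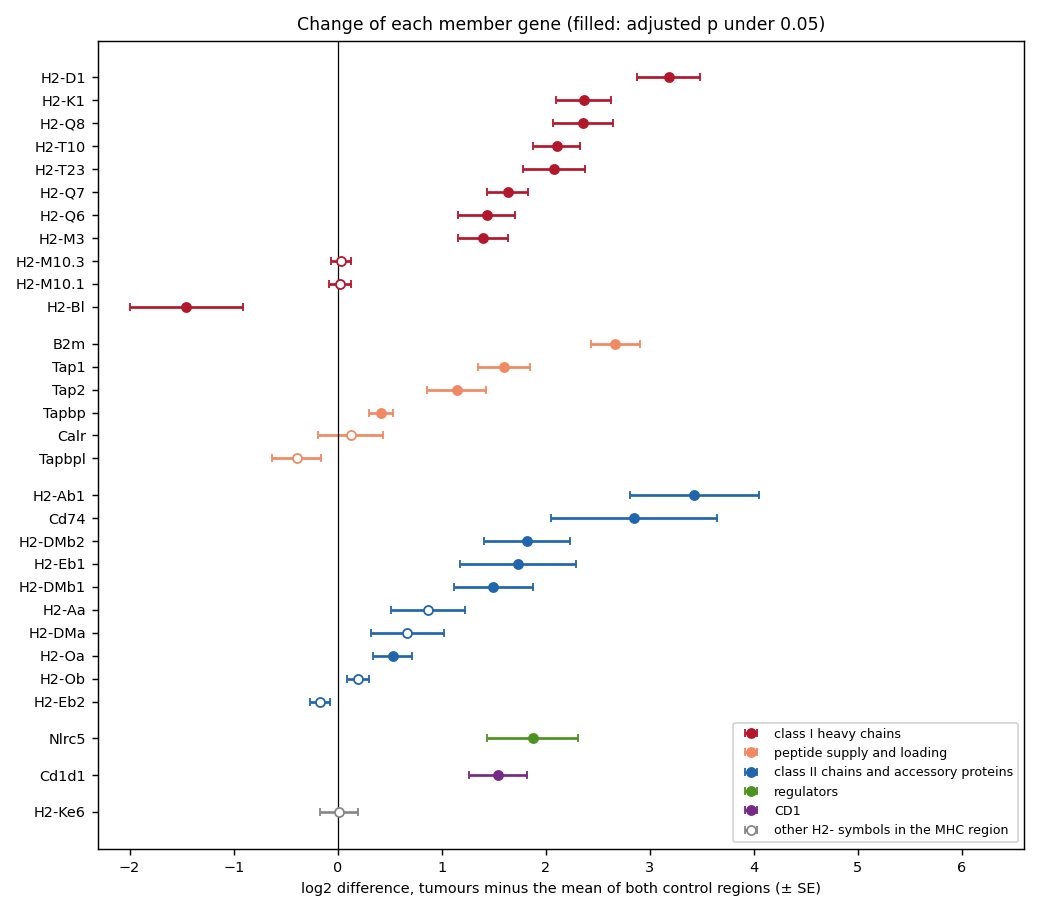
Log2 difference of each of the 30 measured genes between tumours and the mean of both control regions (brightest probe, point ± SE, by role, filled where the adjusted p was under 0.05). Class I heavy chains from H2-M3 up to H2-D1 lie between 1.39 and 3.18 with short error bars, and the class II genes H2-Ab1 and Cd74 reach 3.43 and 2.85 with wide ones.

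Of the 11 class I heavy chain genes measured, 8 were higher in tumours, 1 was lower and 2 did not pass, with a median difference of 1.63. Of all genes 27.2% were higher. H2-D1 (probe ILMN_2462745), the classical heavy chain H-2D, ranged over the tumours from 10.90 through a median of 12.17 to 13.08. Its signals were 9.23, 8.45, 9.35, 8.45 and 8.02 in dorsal controls 1 to 5 and 8.57, 9.45 and 9.44 in ventral controls 1 to 3. Tumour 2 was highest and tumour 3 lowest, and even tumour 3 was above the highest control. The tumours averaged 12.11 ± 0.71 (SD, n = 8), against 8.70 ± 0.57 in dorsal (n = 5) and 9.15 ± 0.51 in ventral controls (n = 3). The difference from both regions was 3.18 ± 0.30 (limma adjusted p = 3.43e-07), and was 2.85 among the arrays of chip 1 and 3.81 among those of chip 3 (chip 2 has no ventral control).

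H2-K1 (probe ILMN_2588139), the classical heavy chain H-2K, had tumour signals from 6.40 through a median of 7.85 to 8.82. The dorsal controls had 5.16, 5.27, 5.13, 5.11 and 5.60 and the ventral controls 5.46, 5.40 and 5.47. As for H2-D1, tumour 2 was highest and tumour 3 lowest, and the groups did not overlap. The difference was 2.37 ± 0.26 (adjusted p = 1.81e-06), with 2.19 within chip 1 and 2.48 within chip 3.

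The nonclassical class I genes of the Q and T regions were also higher in all tumours. H2-Q8, a Qa-2 family gene, ranged from 6.19 in tumour 3 through a median of 7.16 to 8.30 in tumour 2, against 5.14, 4.56, 5.35, 4.69 and 4.64 in dorsal and 4.78, 5.31 and 5.21 in ventral controls. It was higher by 2.36 ± 0.29 (adjusted p = 4.68e-06), and no tumour fell within the range of the controls. H2-T10, annotated as a transcribed pseudogene, ranged from 6.89 in tumour 9 through a median of 7.67 to 8.01 in tumour 7, against 5.09, 5.25, 6.14, 4.96 and 4.80 in dorsal and 6.11, 5.43 and 5.30 in ventral controls. It was higher by 2.11 ± 0.23 (adjusted p = 1.2e-06), with 1.44 within chip 1 and 2.80 within chip 3. H2-T23, the Qa-1 chain that shows leader peptides of class I molecules to natural killer cells, was higher by 2.08 ± 0.29 (adjusted p = 2.27e-05), H2-Q7 by 1.63 ± 0.20 (adjusted p = 5.14e-06) and H2-M3, which presents formylated peptides, by 1.39 ± 0.24 (adjusted p = 0.000163). The brightest probe of H2-Q6 was detected on 8 of 8 tumours and 0 of 8 controls and was at least 2.38-fold higher (adjusted p = 0.000365), where the lowest signal of a detected probe stands in for an undetected one on each control array. Such bounds hold for background-corrected signals. Without the correction the probe was 1.38-fold higher. All 8 genes that were higher were also higher against each region alone. Of all genes 25.8% were higher against dorsal and 19.3% against ventral control. In all 8 every tumour lay above every control, which was so for 9.74% of all 23131 probes. The 8 were picked as higher, and H2-Q6 was measured only with the help of the tumours, so this gives no separate support.

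The remaining heavy chain genes did otherwise. H2-M10.3 and H2-M10.1, genes known from the vomeronasal organ, were close to background, with differences of 0.03 ± 0.09 (adjusted p = 0.795) and 0.02 ± 0.11 (adjusted p = 0.886). H2-Bl, annotated as a transcribed pseudogene, was lower in tumours by 1.45 ± 0.54 on the log2 scale, a difference of -1.45 (adjusted p = 0.0346). Its tumour signals ran from 4.33 through a median of 4.98 to 6.68, against 7.29, 7.50, 6.78, 5.27 and 5.03 in dorsal and 4.49, 8.28 and 7.59 in ventral controls. Dorsal controls 4 and 5 and ventral control 1 thus lay within the range of the tumours, and the other 5 controls lay above every tumour. H2-Bl passed against neither dorsal control (-1.25 ± 0.61, limma adjusted p = 0.104) nor ventral control alone (-1.66 ± 0.72, limma adjusted p = 0.0833). The call against both regions rests on few arrays. It was lost in 13 of 31 alternative settings, among them without any 1 of tumours 3, 5, 7 and 10, dorsal controls 1, 2 and 3 and ventral controls 2 and 3 (-1.08, adjusted p = 0.121, without ventral control 2).

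Several genes have more than 1 measured probe, and class I probes can bind the transcripts of related class I genes. Of the 20 class I heavy chain probes 17 were higher and 1 was lower, against 25.8% higher among all 23131 probes. Those detected on 0 or 1 of 8 controls were measured only with the help of the tumours. The count thus describes the probes measured and gives no separate support to the direction. Another probe of H2-D1 gave 3.22 ± 0.35, and one more, detected on 6 of 8 tumours and 0 of 8 controls, gave a fitted 1.46 ± 0.30 (at least 1.83-fold). For H2-K1 the other probes gave 0.73 ± 0.16 and 0.48 ± 0.18, beside 2.37 for the brightest, and both were detected on 0 of 8 controls (at least 1.39-fold and 1.03-fold). Those of H2-T10, also detected on 0 of 8 controls, gave 2.72 ± 0.28 and 1.75 ± 0.27 (at least 5.40-fold and 2.57-fold), and that of H2-Q8 gave 2.19 ± 0.36 (at least 3.30-fold). The other probe of H2-T23 gave 2.01 ± 0.30 and that of H2-Q6, detected on 1 of 8 controls, 1.01 ± 0.25. All of these passed (adjusted p from 8.84e-07 to 0.0358). The measured probes of these genes shared a direction but not a size. The array does not settle which class I locus a signal comes from.

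**Figure D2:**
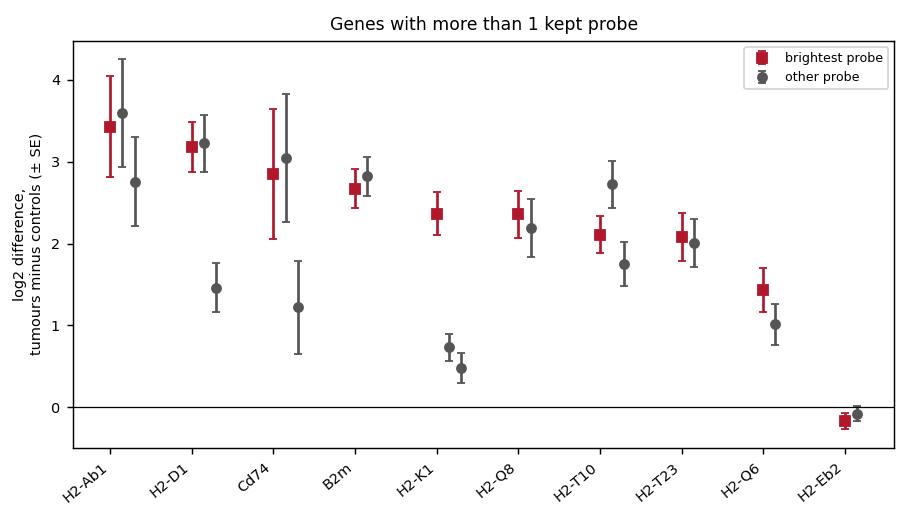
Log2 difference between tumours and the mean of both control regions (point ± SE) for each probe of the 10 genes with more than 1 measured probe. The brightest probe of H2-K1 lies at 2.37 and its other probes at 0.73 and 0.48, whereas both probes of B2m lie at 2.67 and 2.82.

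Of the 6 genes of peptide supply and loading, 4 were higher, 0 lower and 2 did not pass, with a median difference of 0.78, while 27.2% of all genes were higher. Against ventral control alone 2 were higher, B2m and Tap1, while 19.3% of all genes were higher. B2m (probe ILMN_1216746), the light chain shared by all class I molecules, ranged over the tumours from 11.77 through a median of 12.86 to 13.67. The dorsal controls had 9.84, 10.73, 10.65, 10.07 and 10.13 and the ventral controls 10.010, 10.096 and 9.996. Tumour 9 was lowest, still above every control, and tumour 2 highest. The difference was 2.67 ± 0.24 (adjusted p = 1.7e-07), with 2.34 within chip 1 and 3.08 within chip 3, and a second probe gave 2.82 ± 0.24.

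Tap1 (probe ILMN_1250409), a subunit of the peptide transporter, was detected on 8 of 8 tumours and 0 of 8 controls. Its signals ran from 5.13 through a median of 5.83 to 7.08 in tumours, against 4.49, 4.47, 4.36, 4.32 and 4.34 in dorsal and 4.38, 4.40 and 4.34 in ventral controls. Tumours 2 and 7 were highest and tumour 8 lowest, and Tap1 was at least 2.12-fold higher (fitted difference 1.60 ± 0.25, adjusted p = 5.69e-05). Tap2, the other subunit, ranged from 6.70 through 8.66 to 9.19 in tumours, against 7.15, 6.80, 7.13, 6.74 and 6.47 in dorsal and 7.98, 7.63 and 7.60 in ventral controls. All tumours but tumour 3 lay above every control. Tap2 was higher by 1.14 ± 0.28 against both regions (adjusted p = 0.00293) and by 1.58 ± 0.32 against dorsal control (adjusted p = 0.000617), and the 0.70 ± 0.37 against ventral control did not pass (adjusted p = 0.155).

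Tapbp, which encodes tapasin, the bridge between class I molecules and TAP, ran from 5.89 through a median of 5.97 to 6.51 in tumours, against 5.48, 5.49, 5.72, 5.75 and 5.62 in dorsal and 5.97, 5.58 and 5.68 in ventral controls. Ventral control 1 lay among the tumours, and 4 of 8 tumours lay above every control. Tapbp was higher by 0.41 ± 0.11 against both regions (limma adjusted p = 0.00663) and by 0.48 ± 0.13 against dorsal control (limma adjusted p = 0.00576). The 0.35 ± 0.15 against ventral control did not pass (limma adjusted p = 0.086). Calr, the chaperone calreticulin, differed by 0.12 ± 0.31 (adjusted p = 0.765). Its signals were 9.16 to 9.63 in tumours 3, 5, 6 and 7, above every control, and 7.62 to 8.24 in tumours 2, 8, 9 and 10, against 7.84 to 8.75 in dorsal and 8.67 to 8.79 in ventral controls. So 4 tumours lay above the controls and 4 within or below their range. The difference was -0.62 within chip 1 and 0.70 within chip 3. Tapbpl, the tapasin-like peptide editor TAPBPR, differed by -0.39 ± 0.24 (adjusted p = 0.177).

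**Figure D3:**
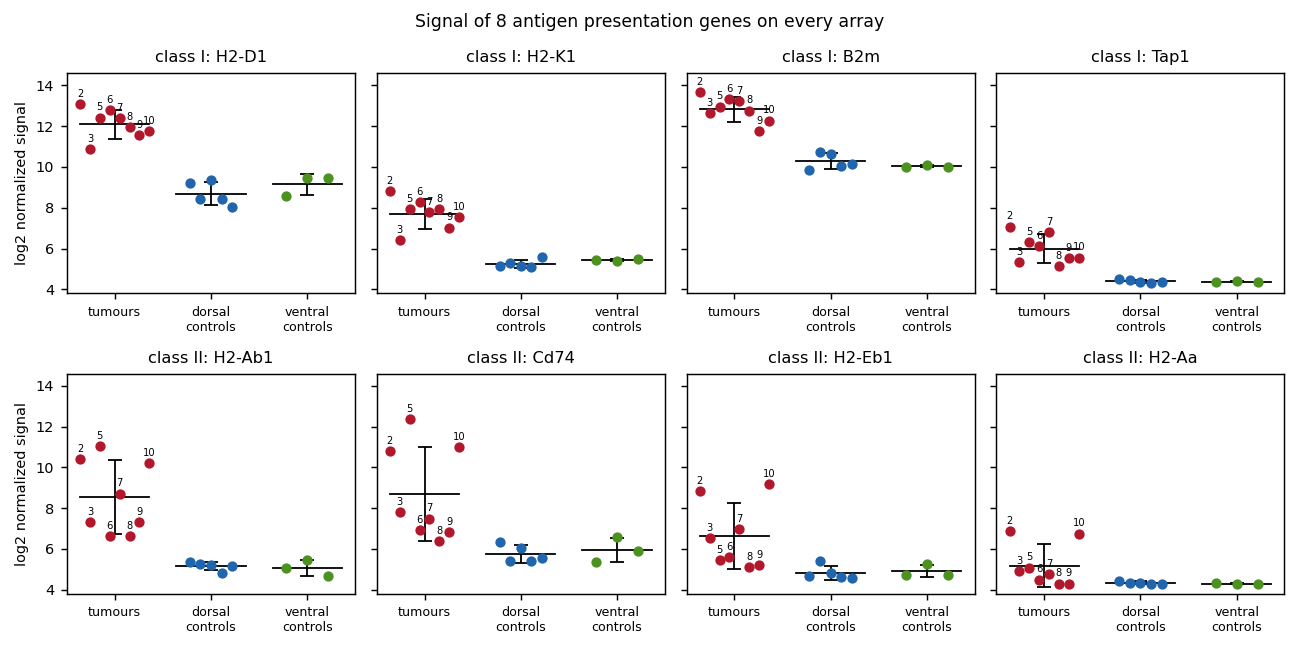
Log2 signal of 4 class I genes (top) and 4 class II genes (bottom) on every array, with tumours numbered and lines for the mean ± SD of each group. All tumours lie above all controls for H2-D1, H2-K1, B2m and Tap1, while for Cd74 tumours 2, 5 and 10 lie at 10.78 to 12.38 and the other 5 at 6.39 to 7.80.

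Of the 10 class II genes measured, 6 were higher in tumours, 0 lower and 4 did not pass, with a median difference of 1.18, while 27.2% of all genes were higher. Against dorsal control alone 5 passed, while 25.8% of all genes were higher. Against ventral control alone 3 passed, H2-Ab1, H2-DMb2 and H2-DMb1, while 19.3% of all genes were higher. H2-Ab1 (probe ILMN_1226525), the beta chain of the I-A molecule, had signals of 10.42, 7.32, 11.06, 6.63, 8.71, 6.64, 7.30 and 10.22 in tumours 2, 3, 5, 6, 7, 8, 9 and 10. The dorsal controls had 5.34, 5.26, 5.19, 4.82 and 5.18 and the ventral controls 5.04, 5.46 and 4.68. Every tumour was above every control, but tumours 2, 5 and 10 stood far above the rest and tumour 7 lay between. The difference was 3.43 ± 0.62 (adjusted p = 0.000238), with 2.86 within chip 1 and 3.68 within chip 3, and its other probes gave 3.59 ± 0.66 and 2.76 ± 0.54.

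Cd74 (probe ILMN_3089584), the invariant chain, had 10.78, 7.80, 12.38, 6.93, 7.48, 6.39, 6.80 and 10.99 in the same tumours. The dorsal controls had 6.35, 5.42, 6.05, 5.39 and 5.56 and the ventral controls 5.35, 6.56 and 5.90. The same 3 tumours were high, and tumour 8 was below ventral control 2, so 7 of 8 tumours lay above every control. The difference was 2.85 ± 0.80 (adjusted p = 0.00703), and the 2.76 ± 1.06 against ventral control alone did not pass (adjusted p = 0.0518). Another probe gave 3.04 ± 0.79, and another one, detected on 3 of 8 tumours and 0 of 8 controls, gave a fitted 1.22 ± 0.57 (at least 1.75-fold, adjusted p = 0.0835).

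H2-DMb2 and H2-DMb1, beta chains of the peptide editor H2-DM, followed tumours 2 and 5. H2-DMb2 had 8.78 in tumour 2 and 8.89 in tumour 5, with a median of 7.00 and a lowest value of 5.41 in tumour 9, against 5.11, 5.25, 5.09, 5.16 and 5.97 in dorsal and 5.28, 5.56 and 5.38 in ventral controls. It was higher by 1.82 ± 0.41 (adjusted p = 0.00168), and H2-DMb1 by 1.49 ± 0.38 (adjusted p = 0.00371), with 7 of 8 tumours above every control for each. H2-DMa, the alpha chain, had 6.09 to 8.56 in tumours, against 6.48 to 8.26 in dorsal and 5.96 to 6.43 in ventral controls. The tumours overlapped with the dorsal controls, and the difference of 0.67 ± 0.35 did not pass (adjusted p = 0.126). It passed in 6 of 31 alternative settings, among them chip as a block (0.75, adjusted p = 0.0459), array weights and without tumour 9.

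H2-Eb1, the beta chain of the I-E molecule, did not follow H2-Ab1 and Cd74 in every tumour. Its tumour signals were 8.83, 6.54, 5.44, 5.61, 6.97, 5.09, 5.20 and 9.17 in tumours 2, 3, 5, 6, 7, 8, 9 and 10, against 4.68, 5.42, 4.82, 4.64 and 4.59 in dorsal and 4.72, 5.28 and 4.74 in ventral controls. Tumours 2 and 10 were high here as well, but tumour 5, the highest of all for H2-Ab1 and Cd74, lay just above dorsal control 2. H2-Eb1 was higher by 1.74 ± 0.56 (adjusted p = 0.0161), without a pass against ventral control alone (1.70 ± 0.74, adjusted p = 0.0851). Without background correction the call was lost (0.77, adjusted p = 0.0593).

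H2-Aa, the alpha chain of I-A and the partner of H2-Ab1, was detected on 4 of 8 tumours and 0 of 8 controls. Its signals were 6.85, 4.93, 5.07, 4.49, 4.78, 4.30, 4.29 and 6.75 in the tumours in the same order, against 4.28 to 4.44 in dorsal and 4.26 to 4.32 in ventral controls. Tumours 2 and 10 stood out, and tumour 5 was near the level of the lower tumours. The difference of 0.87 ± 0.36 (at least 1.22-fold) missed the threshold (adjusted p = 0.0522) and passed in 7 of 29 alternative settings. Of the other class II genes, H2-Oa, which with H2-Ob forms an inhibitor of H2-DM, was higher by 0.53 ± 0.19 (adjusted p = 0.0303), with 3 of 8 tumours above every control. It passed against neither dorsal control (0.49 ± 0.21, limma adjusted p = 0.0722) nor ventral control alone (0.57 ± 0.25, limma adjusted p = 0.0939). The call against both regions was lost in 7 of 29 settings, among them without tumour 2 (0.41, adjusted p = 0.0527), without tumour 6, without ventral control 2 and without ventral control 3. H2-Ob (0.20 ± 0.11, adjusted p = 0.135) and H2-Eb2 (-0.17 ± 0.10, adjusted p = 0.153) did not pass.

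The spread between tumours was described by gene, with no test between the classes. Among the genes called higher, the SD over the 8 tumours was 0.44 to 0.77 (median 0.72) for the 8 class I heavy chains and 0.48 to 2.31 (median 1.40) for the 6 class II genes, of which H2-Oa had the lowest. The class II genes H2-Ob and H2-Eb2, which did not pass, had SDs of 0.19 and 0.15. Both lay near background, with tumour signals of 4.53 to 5.10 and 4.68 to 5.20, so these SDs are not comparable with those of brighter genes. Relative to the mean of the controls, the difference of H2-D1 in single tumours ran from 1.97 in tumour 3 to 4.16 in tumour 2, and that of Cd74 from 0.55 in tumour 8 to 6.53 in tumour 5. H2-D1 and H2-Ab1 did not rank the tumours alike. Tumour 6 had the second highest H2-D1 of all tumours, at 12.80, and the lowest H2-Ab1, at 6.63, while tumour 10 had 11.75 for H2-D1, above only tumours 3 and 9, and 10.22 for H2-Ab1. Tumour 6 was not low for all class II genes, with 7.38 for H2-DMb2, 6.90 for H2-DMb1 and 7.72 for H2-DMa, each below only tumours 2 and 5, and 5.59 for H2-Oa, below only tumour 2. These are descriptions of single tumours without a replicate.

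**Figure D4:**
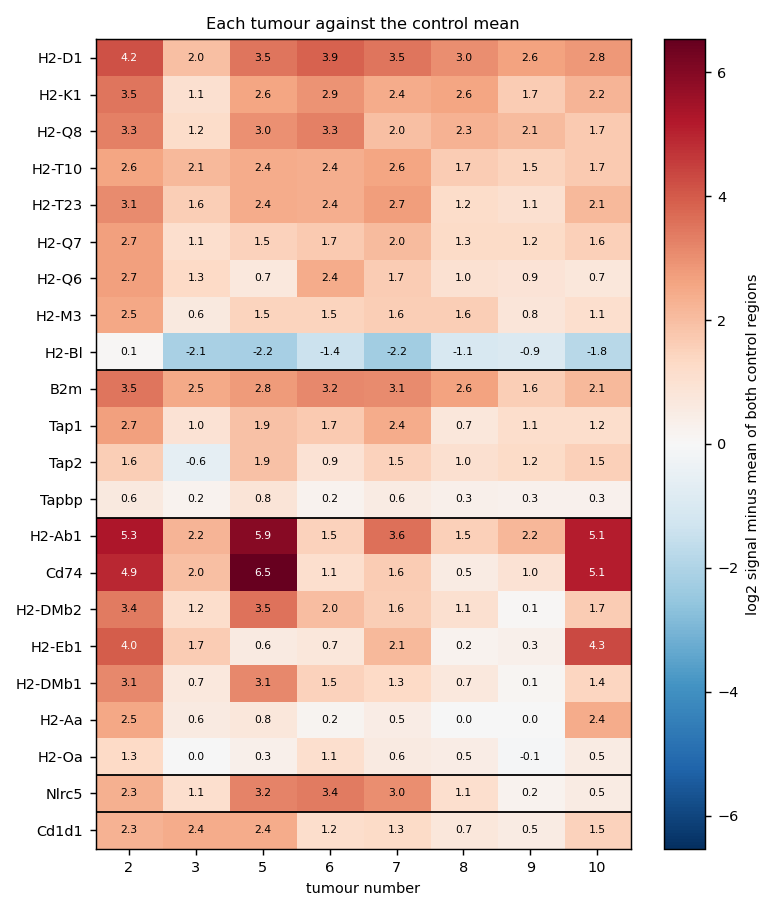
Log2 signal of each tumour relative to the controls of both regions (numbers and shading, red for higher and blue for lower) for the 21 genes that passed and H2-Aa, with lines between class I heavy chains, peptide loading, class II, Nlrc5 and Cd1d1. Red runs across all 8 tumours from H2-D1 to H2-M3 and for B2m, whereas H2-Ab1 and Cd74 reach 4.93 to 6.53 in tumours 2, 5 and 10 and at most 3.60 in the other 5.

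Relations were computed across the 8 tumours for 6 pairs of genes, with exact two-sided permutation tests adjusted over the 6. H2-D1 followed B2m, with r = 0.771 (adjusted p = 0.0379) and rho = 0.905 (adjusted p = 0.0214), and with r = 0.935 without tumours 2 and 3, the farthest from the median of H2-D1. H2-D1 and Tap1 had r = 0.80 (adjusted p = 0.0362) and rho = 0.762 (adjusted p = 0.0551 by the same exact permutation), with r = 0.686 without the same tumours. H2-D1 also followed C1qb, a complement gene of microglia and macrophages, with r = 0.803 (adjusted p = 0.0362) and rho = 0.857 (adjusted p = 0.0214) in exact permutation tests, and r = 0.893 without tumours 2 and 3. With each chip centred on its own mean, r was 0.817 for B2m, 0.775 for Tap1 and 0.773 for C1qb, while a chip holds too few tumours (2 or 3) for a value of its own. The other 3 pairs involve H2-Ab1. No r is given for them, since tumours 2, 5 and 10 lay apart from the rest and neither cluster holds 6 tumours. By rank, H2-D1 with H2-Ab1 had rho = 0.238 (exact permutation, adjusted p = 0.582), as did H2-Ab1 with C1qb. H2-Ab1 with Cd74 had rho = 0.881 (exact permutation, adjusted p = 0.0214), with tumours 2, 5 and 10 at the top of both. The order of these tumours above the rest enters the ranks, so this p does not test a relation within either cluster. With 8 tumours, a p that misses the threshold does not show that a relation is absent.

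Of the regulators, Nlrc5, the class I coactivator, was measured and Ciita, the class II coactivator, was detected on 2 of 8 tumours and 0 of 8 controls, too few arrays to be kept. Nlrc5 was detected on 7 of 8 tumours and 0 of 8 controls. Its signals were 6.65, 5.41, 7.53, 7.71, 7.34, 5.41, 4.52 and 4.85 in tumours 2, 3, 5, 6, 7, 8, 9 and 10, against 4.45, 4.27, 4.24, 4.39 and 4.31 in dorsal and 4.29, 4.28 and 4.24 in ventral controls. Tumours 5, 6 and 7, all on chip 3, were highest, and tumours 9 and 10, on chip 1, lay just above the controls. Nlrc5 was at least 2.43-fold higher (fitted difference 1.87 ± 0.44, adjusted p = 0.00194). The difference was 0.56 within chip 1 and 3.24 within chip 3, and the chip and the tumours on it cannot be told apart.

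Cd1d1, which presents lipids to natural killer T cells, had tumour signals from 5.44 through a median of 6.29 to 7.36, against 4.79, 4.58, 4.65, 4.69 and 4.55 in dorsal and 5.29, 5.48 and 4.71 in ventral controls. Tumours 2, 3 and 5 were highest, and all tumours but tumour 9 lay above every control. It was higher by 1.54 ± 0.28 (adjusted p = 0.000216), with 0.79 within chip 1 and 1.70 within chip 3. H2-Ke6, a gene of fatty acid and steroid metabolism that is named for its place in the MHC, ran from 9.72 through a median of 10.01 to 10.97 in tumours, against 9.65, 9.68, 9.59, 9.88 and 10.34 in dorsal and 10.53, 10.28 and 10.36 in ventral controls. The groups overlapped, and the difference was 0.02 ± 0.18 (adjusted p = 0.951).

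The 17 genes that were not measured are Ciita, Erap1, an aminopeptidase that trims class I peptides, Cd1d2, the class II gene H2-Ea, and 13 class I heavy chain genes. These are H2-M1, H2-M5, H2-M9, H2-M10.2, H2-M10.4, H2-M10.5, H2-M10.6, H2-M11, H2-Q1, H2-Q2, H2-Q10, H2-T3 and H2-T18. Each was detected on at most 2 of 16 arrays, which on an array says that the signal was not well above background.

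The comparison of ventral with dorsal control asks whether the members differ between normal brain regions. By limma 0 of the 30 genes passed, against 9.24% of all genes in either direction, and the lowest adjusted p was 0.247. At an unadjusted p under 0.05 there were 2, Tap2 (0.88 ± 0.40) and H2-Ke6 (0.56 ± 0.26), both higher in ventral control. With array weights 4 genes passed. With 3 ventral and 5 dorsal arrays, a p that misses the threshold does not show that the regions are alike.

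Other genes of the pathway outside the members were counted in the same fit against both regions, in which 27.2% of all genes were higher and 26.6% lower. Of the 5 genes of the immunoproteasome and its activator, which cut peptides for class I, 4 were higher and 0 lower. Psmb8, a catalytic subunit, was higher by 3.33 ± 0.27 (adjusted p = 7.46e-08), Psmb9 by 1.76 ± 0.41 and the activator subunit Psme2 by 1.46 ± 0.10, and Psmb10 differed by -0.01 ± 0.25 (adjusted p = 0.976). Psme1 was higher by 0.95 ± 0.16 (limma adjusted p = 0.000163) but did not pass against ventral control alone (0.31 ± 0.22, limma adjusted p = 0.291). Of 3 measured chaperones and thiol reductases, Ifi30, which reduces disulfides of antigens in the endosome, was higher by 2.20 ± 0.24 (adjusted p = 1.34e-06), as was Pdia3, a part of the peptide loading complex, by 0.73 ± 0.13 (adjusted p = 0.000226), and Pdia6 was lower (-0.70 ± 0.23, adjusted p = 0.0169). Pdia6 did not pass against dorsal control alone (-0.36 ± 0.25, limma adjusted p = 0.26). Of 6 endosomal proteases 4 were higher and 0 lower. These were Ctsc (1.61 ± 0.25), Ctsl (at least 2.12-fold), Lgmn (1.24 ± 0.23) and Ctss, which degrades the invariant chain (0.85 ± 0.24, adjusted p = 0.00688).

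Of 12 measured genes of the promoter complex and of interferon gamma signalling, 6 were higher and 0 lower, while 27.2% of all genes were higher. Irf1, an interferon-induced transcription factor of class I promoters, was higher by 2.51 ± 0.14 (adjusted p = 1.63e-09), at 9.69 to 10.44 in tumours, against 6.89 to 7.63 in dorsal and 7.48 to 7.83 in ventral controls. Irf8 was higher by 1.58 ± 0.16, the receptor chain Ifngr1 by 1.30 ± 0.23 and the kinase Jak2 by 0.81 ± 0.24, and Nfya and Nfyc, subunits of NF-Y, passed with small differences. Jak2 (0.42 ± 0.27, limma adjusted p = 0.214) and Nfyc (0.10 ± 0.11, limma adjusted p = 0.49) did not pass against dorsal control alone. Nfya did not pass against ventral control alone (0.47 ± 0.22, limma adjusted p = 0.101). Ifng itself, the class II promoter factor Rfx5 and Socs1 were detected on fewer than 3 arrays. Of 6 costimulatory and checkpoint ligands, Cd276, which encodes B7-H3, was higher by 2.80 ± 0.20 (adjusted p = 2.04e-08) and Cd86, a costimulator on antigen-presenting cells, by 1.61 ± 0.33 (adjusted p = 0.000694), while Cd274, which encodes PD-L1, differed by 0.32 ± 0.16 (adjusted p = 0.115). For Cd274 the regions gave different results, with 0.95 ± 0.18 against dorsal control (adjusted p = 0.000494) and -0.31 ± 0.22 against ventral control (adjusted p = 0.294), and it was higher in ventral than in dorsal control by 1.26 ± 0.24 (adjusted p = 0.0027).

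Markers of cells that carry class I and class II molecules also differed, in a fit in which 27.2% of all genes were higher and 26.6% lower. Of 12 measured microglia markers 6 were higher in tumours and 0 lower, and their summed linear signal was 1960 to 20538 in tumours, against 2244 to 3651 in dorsal and 1900 to 2209 in ventral controls. Those that rose were C1qa, C1qb, C1qc, Trem2, Aif1 and Sall1. Aif1 passed against neither dorsal control (1.03 ± 0.54, limma adjusted p = 0.13) nor ventral control alone (1.56 ± 0.64, limma adjusted p = 0.0683). Against both regions the homeostatic markers Cx3cr1 (0.01 ± 0.53) and Tmem119 (0.28 ± 0.33) did not pass. Nor did Fcrls (1.39 ± 0.58), Csf1r (0.25 ± 0.34), Gpr34 (-0.27 ± 0.35) and Siglech (-0.21 ± 0.39). Sall1 did not rank the tumours as C1qb did, with its lowest signal (6.61) in tumour 2, where C1qb was highest (12.83). Of 7 monocyte and macrophage markers 5 were higher and 0 lower, with a summed signal of 1605 to 19120 in tumours, against 267 to 329 in dorsal and 281 to 389 in ventral controls. The macrophage markers did not rank the tumours alike. Lyz2 was 12.61, 11.35, 12.20, 10.74, 11.91, 9.74, 9.27 and 9.66 in tumours 2, 3, 5, 6, 7, 8, 9 and 10. Ms4a7 was highest in tumours 2, 5 and 10 (8.27, 7.60 and 7.56), the tumours highest in H2-Ab1 and Cd74, and 4.76 to 6.77 in the other 5. Mrc1 was likewise highest in these 3 (8.12, 6.38 and 6.26), against 4.60 to 5.82 in the other 5, though it did not pass (0.70 ± 0.37, adjusted p = 0.124). Gpnmb ran from 8.62 in tumour 9 to 12.89 in tumour 2, with 9.69 in tumour 5 and 11.45 in tumour 10. Lgals3 ran from 8.85 in tumour 9 to 12.03 in tumour 2, and Adgre1 from 4.47 in tumour 9 to 7.39 in tumour 2. F13a1 was 8.26 in tumour 2, 6.57 in tumour 7 and 4.46 to 5.17 in the other 6. Of 3 measured dendritic cell markers 0 passed in limma at an adjusted p (median difference 0.19) and 0 at an unadjusted p under 0.05, and Itgax, Xcr1, Clec9a, Cd209a and Ccr7 were detected on fewer than 3 arrays. No B cell marker was measured, with Cd79b, Ms4a1, Pax5 and Blk on fewer than 3 arrays. Of 3 measured T and NK cell markers Ccl5 was at least 5.68-fold higher and Cd8b1 lower (-0.70 ± 0.25). Cd8b1 did not pass against dorsal control alone (-0.37 ± 0.28, limma adjusted p = 0.294). The T cell marker Cd3e differed by -0.05 ± 0.18 (limma adjusted p = 0.829). Cd3d, Cd3g, Cd4 and Cd8a were detected on fewer than 3 arrays. Cd8b1 was bright in normal brain, at 9.22 to 9.67 in dorsal and 9.99 to 10.28 in ventral controls, and what its probe binds was not tested. Of 8 endothelial markers Flt1 was lower (-1.09 ± 0.34) and 0 were higher. The part of these cells in the differences of the class I and class II genes was not tested.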

How the data were processed

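Total RNA of flash-frozen tissue was extracted with a Qiagen kit for lipid-rich tissue and labelled with biotin, per the labels' protocols, and hybridised to Illumina bead arrays, 1 per sample. Per the file headers, the authors deposited a table of mean bead intensity per probe, neither normalized nor background-subtracted, with a detection p-value for each probe and array. The authors also deposited log2 values for 38563 probes, made by a method not given in the sources used here. They differed from the values computed here by at most 0.0603 and serve as an alternative.

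The intensities were corrected and normalized with neqc of limma 3.58.1, run in R 4.3.3 (background from detection p-values, offset 16, quantile normalization, log2). This left 23131 probes whose detection p-value was below 0.05 on 3 or more arrays. Gene symbols came from the platform table, which lists 32109 probes, updated through Entrez IDs for 32035. The 4989 kept probes without a single gene stayed in the fit unnamed. The fit used lmFit and eBayes with 3 group means on 16 arrays. The p-values measure the spread between these arrays. For a probe undetected on every array of a lower group, the higher of its own signal and the lowest detected signal of each array gave an "at least" fold. Summed marker signals add 2 to the power of each log2 value. The fit was tested on simulated data.

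The members and gene lists were chosen with earlier results of these data known. Every measured member was accounted for. In each role the 4 genes with the largest absolute change, and H2-K1, H2-D1, B2m, Tap1, Cd74, H2-Ab1, H2-Aa and Nlrc5, were to be given by sample. Tumours were given singly for H2-Ab1, Cd74, H2-Eb1, H2-Aa and Nlrc5, and as lowest, median and highest signal for the others. Their controls were given singly, except for H2-Aa. At most 4 genes of each other list, with the largest change, were to be named. Psmb10, Pdia6, Ctss, Nfya, Nfyc, Cd274, Cx3cr1, Tmem119, Slc17a7 and the other markers were chosen after seeing their values. Alternatives covered background correction, normalization, which probe stands for a gene, a stricter or absent detection filter, array weights, a trended robust prior, chip or replicate number as a block, the 8 controls as 1 group, and leaving out single arrays. Promoter sequences are from RefSeq, GRCm38.p6.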

Additional observations from a re-analysis of the deposited data

Results flagged for a closer look

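In groups of 4 to 10 samples, the highest or lowest sample was set against the others by the gap to its neighbour relative to the range of the group (Dixon's test). Of 60 groups tested over the 30 genes, 4 held such a sample, and chance gives about 1 in 20. Tap2 was 6.70 in tumour 3, below the 8.22 to 9.19 of the other tumours. H2-DMb2 was 5.97 in dorsal control 5, above the 5.09 to 5.25 of the other dorsal controls. In dorsal control 2, H2-Eb1 was 5.42, against 4.59 to 4.82 in the other dorsal controls, and H2-Oa was 5.06, against 4.36 to 4.43.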

How the results depend on the processing

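The 30 genes kept direction and call in most settings. Over 912 combinations of gene and setting, 861 had the same direction and side of the threshold, 23 lost the call, 13 gained it and 15 turned the sign. The counts of genes that passed moved by more than 1.5 times in these cases: against ventral control 24 with array weights, beside 15, and between ventral and dorsal control, beside 0, 4 with array weights, 1 with no detection filter and 1 with the replicate block. Leaving out 1 array at a time gave 19 to 23 against both regions, 18 to 20 against dorsal control, 11 to 18 against ventral control and 0 between the regions. With chip as a block the counts were 21, 19, 16 and 0, and with the replicate block 19, 19, 19 and 1. Over 8 pairs with the same replicate number, deviations from the group means correlated at r = -0.0579 to 0.14, and 2 pairs were over 0.1. Pairs with unlike numbers were not set beside them, so these values cannot show whether the numbers pair the samples. With the block the calls of Tap2 (adjusted p = 0.169), Tapbp (adjusted p = 0.0525), H2-Bl and H2-Oa were lost, and those of H2-Aa and H2-DMa gained. Over 1.5 times in size moved 17 of the 21 called genes without background correction (by 1.53 to 3.32 times) and 7 with an offset of 50 (by 1.57 to 2.13 times), all toward 0, H2-K1 with the mean of all its probes (1.19), Tapbp with median scaling (0.63) and Cd1d1 with the replicate block (2.44). Signs turned only in genes that did not pass. H2-M10.3 was -0.021 with array weights and -0.014 to 0.068 without single arrays. H2-Ke6 was -0.19 with the replicate block, -0.0053 with chip as a block and -0.11 to 0.080 without single arrays. H2-M10.1 was -0.048 with the replicate block and -0.055 to 0.042 without single arrays, and Calr was -0.012 to 0.27. The causes were not tested. Low signals limit H2-Aa, H2-Oa, H2-Ob, H2-Eb2, H2-M10.1 and H2-M10.3, which lie near background.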
